A study of Homo sapiens with 8 samples.

Results

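Small nucleolar RNA (snoRNA) host genes make a spliced RNA whose introns carry snoRNAs, the guides that direct chemical modification of ribosomal and spliceosomal RNA. The genes described here are noncoding hosts, whose spliced exons hold no long reading frame. They were chosen by name: GAS5, SNHG1, SNHG3, SNHG5, SNHG6, SNHG7, SNHG8, SNHG12 and SNHG15. Of these 9 genes, 8 were matched to a row of the table of 22504 genes, and all 8 were among the 12996 genes tested. SNHG8 was not analysed here. The cells were U2OS, a line established from a human osteosarcoma, whose poly(A) RNA was sequenced in 8 libraries, 2 in each of 4 groups. The groups were cells overexpressing the actin mutant G13R after serum stimulation, the same cells in normal growth, GFP-expressing control cells after serum stimulation, and GFP-expressing cells in normal growth. Which actin gene carried the mutation, how it was introduced, how long serum was given and whether serum had been withdrawn beforehand are not stated in the labels. Nothing in the labels ties the libraries to separate cultures, so p-values measure the spread between libraries, which may be technical.

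Each snoRNA is trimmed out of its intron and kept in a ribonucleoprotein particle, while the spliced exons of the host leave the nucleus as a separate RNA. In mammalian cells the spliced RNAs of several of these hosts are read by ribosomes over short reading frames that end far upstream of the last exon junction, and such RNAs are removed by nonsense-mediated decay, a pathway that depends on translation. Many host RNAs, like those of ribosomal proteins, begin with a C and a run of pyrimidines, the 5′ terminal oligopyrimidine (TOP) tract, through which the mTORC1 pathway and the tract-binding protein LARP1 control translation. GAS5 is named for its accumulation in growth-arrested cells and is known as an RNA that binds the glucocorticoid receptor. The reading frames, their translation and the mature snoRNAs were not measured here. The values are levels of host RNA in poly(A)-selected RNA.

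The start of the RNA is shown because a TOP tract is a property of the first bases. RefSeq windows were found for 6 of the 8 hosts, all but SNHG6 and SNHG15, and cover 10 bases before the annotated start and 30 from it on the gene's own strand in build GRCh38.p14. A tract was counted where a C within 5 bases of the start was followed by at least 4 pyrimidines, and capitals mark it. By this rule SNHG5, SNHG7 and SNHG12 held a tract, as did 21.1% of all 35116 promoters of the same length, and GAS5, SNHG1 and SNHG3 did not.
SNHG12 (RefSeq, chr1:28581844-28581883, minus strand): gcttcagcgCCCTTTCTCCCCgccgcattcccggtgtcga
SNHG7 (RefSeq, chr9:136728155-136728194, minus strand): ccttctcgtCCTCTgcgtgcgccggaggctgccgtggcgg
SNHG5 (RefSeq, chr6:85678704-85678743, minus strand): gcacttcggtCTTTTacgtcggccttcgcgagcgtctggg
A second annotation gave a different start for some hosts. Of 29 GAS5 transcripts in GENCODE release 29, 0 began within 25 bases of the RefSeq start, and the commonest start, shared by 6 transcripts, lay 1056 bases downstream at position 173867989 of chromosome 1. Of 25 SNHG1 transcripts, 3 began within 25 bases of the RefSeq start, and the commonest start, shared by 9, lay 397 bases downstream at position 62855488 of chromosome 11. The first 30 bases of those transcripts follow, again with any tract in capitals.
GAS5 (GENCODE, GRCh38, minus strand): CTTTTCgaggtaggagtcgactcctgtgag
SNHG1 (GENCODE, GRCh38, minus strand): cttattgggctcctgtctgcaggatttacg
In the transcripts a tract was sought only from the first base on, so bases before the start were not read. At that start GAS5 opened with a tract of 6 bases and SNHG1 held none. Read from the first base on at the RefSeq starts too, SNHG5 and SNHG12 held a tract, as did 13.9% of all promoters, while SNHG7 did not, because the C that opens its tract lies 1 base before the start. In GENCODE a tract opened 7 of 29 GAS5 transcripts, 2 of 25 of SNHG1, 1 of 3 of SNHG3, 6 of 23 of SNHG5, 0 of 4 of SNHG7, 8 of 17 of SNHG12 and 0 of 10 of SNHG15. Whether a host was counted with a tract thus depended on the annotated start for GAS5, SNHG1 and SNHG3, on the bases read for SNHG7, and within GENCODE on the transcript for SNHG5 and SNHG12. Which starts these U2OS cells used was not measured.

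Other sequence features of the 6 RefSeq windows, which run from 250 bases before the start to 50 after it, were few. The E-box CACGTG, the letters bound by MYC and related factors, lay in the SNHG7 window at position -122 from the start, and 7.256% of all windows held one. The cAMP response element core TGACG, searched on both strands, lay in the SNHG12 window at -128, and 24.553% of all windows held it. The CArG box that binds SRF, present in 1.293% of all windows, and the AP-1 site TGANTCA, present in 7.709%, had no match in the 6 windows. The commonest GENCODE starts of GAS5 and SNHG1, 1056 and 397 bases downstream of the RefSeq starts, lie outside these windows and were not searched. A match is a string of letters and says nothing about binding in these cells.

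Levels differed more between hosts than between groups. The unit is FPKM, fragments scaled to transcript length and to the mapped fragments of the library, so levels can be set side by side between genes of different length. SNHG6 on chromosome 8 (hg19, chr8:67833919-67838633), host of a box C/D snoRNA, and GAS5 on chromosome 1 (chr1:173833038-173838020), host of a cluster of box C/D snoRNAs, were the 2 most abundant, with all 8 libraries of each above 200 FPKM. Together they made up 45.6 to 60.3% of the summed level of the 8 hosts. SNHG1 (chr11:62619460-62623386), also a host of a box C/D cluster, lay between 97.5 and 218 FPKM. SNHG7 (chr9:139615818-139622636) and SNHG3 (chr1:28832492-28837404), hosts of box H/ACA snoRNAs, and SNHG5 (chr6:86370710-86388451), host of a pair of box C/D snoRNAs, lay between 39.8 and 86.9 FPKM. SNHG12 (chr1:28905050-28909495), host of H/ACA snoRNAs and of the box C/D snoRNA SNORD99, and SNHG15 (chr7:45022622-45026560), an H/ACA host, were lowest, between 18.6 and 58.0 FPKM. All 8 lie on the minus strand except SNHG3, and coordinates span the whole gene, exons and introns together. By group means SNHG6 was above GAS5 in 3 groups and below it in normally grown GFP cells, and in 3 of the 4 groups the libraries of these neighbours in the order overlapped.

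The summed level of the 8 hosts was 885 and 872 FPKM in G13R cells after serum, against 918 and 965 FPKM in G13R cells in normal growth. It was 832 and 701 FPKM in GFP cells after serum, against 1052 and 984 FPKM in GFP cells in normal growth. In each kind of cell both serum libraries lay under both normal-growth libraries. The mean sum in G13R cells was 942 FPKM in normal growth and 878 FPKM after serum, and SNHG1 alone went from 177 to 113 FPKM. The fall of the sum in G13R cells was no larger than that of SNHG1, and the other hosts moved both ways. In G13R cells the mean of SNHG6 went from 238 to 271 FPKM and that of GAS5 from 237 to 242 FPKM. The mean of SNHG7 went from 78.8 to 59.7 FPKM and that of SNHG15 from 39.9 to 30.9 FPKM. The means of SNHG3, SNHG5 and SNHG12 were also lower after serum. The sum was 0.13 to 0.194% of all FPKM in a library, and the lowest share was that of GFP serum replicate 2.

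GFP serum replicate 2 stands apart from the other libraries and bears on every value after serum in GFP cells. On the first principal component of all tested genes, which held 53.9% of the variance, it lay at 44.7, while its partner lay at 26.0 and the pair from serum-treated G13R cells at 11.8 and 14.5. A change of over 2-fold separated it from its partner for 186 genes, where partners in the other groups were so separated for 87 to 102. All 8 hosts were lower in it than in GFP serum replicate 1, with a median log2 difference of -0.27, while the median over all tested genes was 0.03. Results after serum in GFP cells are therefore given with and without it where it matters. ACTB, the gene of beta-actin, was at 7949 to 11245 FPKM in the 4 G13R libraries and at 2543 to 2779 FPKM in the 4 GFP libraries, so every G13R library lay above every GFP library for that gene. Of 10 osteoblast-lineage markers 6 reached 1 FPKM in every library, among them SPARC at 384 to 765 FPKM, whereas SP7, IBSP and COL1A2 stayed under 1 FPKM. All 4 leukocyte and all 3 endothelial markers stayed under 1 FPKM. Of 3 epithelial markers EPCAM was at 1.63 to 2.88 FPKM, CDH1 reached 1 FPKM in 6 libraries, up to 4.47 FPKM, and KRT5 in 2. Of 3 neural markers RBFOX3 was at 7.70 to 14.1 FPKM, while SOX2 reached 1 FPKM in 3 libraries and GFAP in 1. Summed epithelial markers were at 3.15 to 4.37 FPKM in serum-treated and 3.89 to 7.20 FPKM in normally grown G13R cells, and at 4.18 to 5.03 FPKM in serum-treated and 4.06 to 7.46 FPKM in normally grown GFP cells. Summed neural markers were at 11.0 to 11.5 FPKM in serum-treated and 8.40 to 10.7 FPKM in normally grown G13R cells, and at 15.9 to 16.1 FPKM in serum-treated and 11.5 to 12.5 FPKM in normally grown GFP cells. The summed osteoblast-lineage markers were at 598 to 664 FPKM in serum-treated and 475 to 520 FPKM in normally grown G13R cells, and at 780 to 932 FPKM in serum-treated and 613 to 696 FPKM in normally grown GFP cells. Any part of these markers in the results was not tested.

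**Figure D1:**
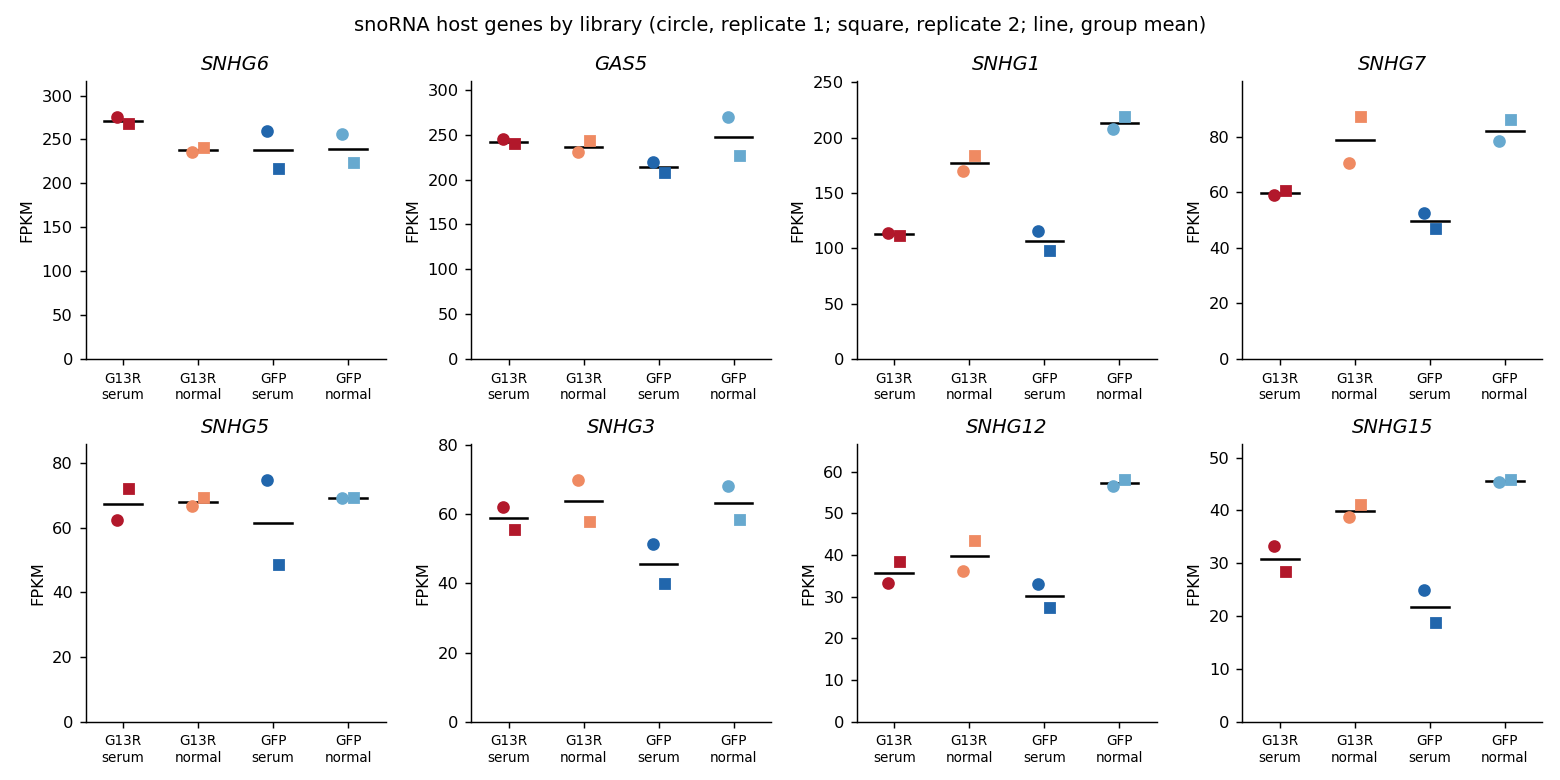
FPKM of each host gene (y axis, starting at 0) in G13R cells after serum and in normal growth and in GFP cells after serum and in normal growth (x axis). Circles are replicate 1, squares replicate 2 and lines group means. SNHG1, SNHG7, SNHG12 and SNHG15 are lower after serum in GFP cells, while SNHG6 and SNHG5 overlap between those groups.

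Serum stimulation was accompanied by a lower level of 1 host in G13R cells and of 5 hosts in GFP cells. In G13R cells 1 of 8 hosts, SNHG1, was called lower at an adjusted p under 0.05 (limma, Benjamini-Hochberg over all 12996 genes), and 0 were called higher, also at an unadjusted p under 0.05. Of all genes tested 4.62% were called lower and 8.26% higher in that comparison. At an unadjusted p under 0.05, 17.6% of all genes were higher after serum in G13R cells and 21% in GFP cells. In GFP cells 5 of 8 hosts, SNHG1, SNHG15, SNHG12, SNHG7 and SNHG3, were called lower and 0 higher (0 also at an unadjusted p under 0.05), where 15.7% of all genes were called lower and 14.9% higher. The median log2 fold change of the hosts was -0.13 in G13R cells and -0.59 in GFP cells, beside medians over all genes of 0.04 in G13R cells and 0.01 in GFP cells. For bulk RNA, fewer cells that hold much of a host RNA and less of it per cell cannot be told apart. Both serum libraries lay under both normal-growth libraries for 3 of 8 hosts in G13R cells, beside 26.4% of all genes, and for 6 of 8 in GFP cells, beside 33%. Log2 fold changes here and below are differences of mean log2(FPKM + 1), given with their standard error.

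SNHG1 was lower after serum in both kinds of cell. Its level was 114 and 111 FPKM in G13R cells after serum, against 170 and 183 FPKM in G13R cells in normal growth. In GFP cells it was 115 and 97.5 FPKM after serum, against 208 and 218 FPKM in normal growth. The serum libraries lay under the normal-growth libraries in both kinds of cell with a wide gap. The log2 fold change was -0.65 ± 0.09 in G13R cells (adjusted p = 0.0026, limma) and -1.0 ± 0.09 in GFP cells (adjusted p = 1.02e-04). SNHG1 kept its call in both comparisons under every alternative setting run, among them each library left out, except where a 2-fold minimum was required.

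SNHG15 and SNHG12 are the least abundant of the hosts and were among the most reduced in GFP cells. SNHG15 was at 33.3 and 28.4 FPKM in G13R cells after serum, against 38.8 and 41.0 FPKM in G13R cells in normal growth. In GFP cells it was at 24.9 and 18.6 FPKM after serum, against 45.5 and 45.7 FPKM in normal growth. Neither pair of groups overlapped, and the log2 fold change was -0.36 ± 0.14 in G13R cells (adjusted p = 0.107) and -1.05 ± 0.14 in GFP cells (adjusted p = 5.68e-04). The G13R value of SNHG15 passed in 3 of 17 alternative settings, which were the fit of the compared libraries alone and those without GFP serum replicate 1 or 2, and its adjusted p ranged from 0.0333 to 0.42. SNHG12 was at 33.2 and 38.3 FPKM in G13R cells after serum, against 36.2 and 43.2 FPKM in G13R cells in normal growth, and these ranges overlapped. In GFP cells it was at 33.1 and 27.4 FPKM after serum, against 56.6 and 58.0 FPKM in normal growth, a clear separation. Its log2 fold change was -0.15 ± 0.13 in G13R cells (adjusted p = 0.483) and -0.90 ± 0.13 in GFP cells (adjusted p = 8.01e-04). The GFP calls of both genes held without either GFP serum library.

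SNHG7 carries H/ACA snoRNAs, the class that guides pseudouridine formation. It was at 59.2 and 60.3 FPKM in G13R cells after serum, against 70.6 and 86.9 FPKM in G13R cells in normal growth. In GFP cells it was at 52.7 and 46.6 FPKM after serum, against 78.5 and 85.8 FPKM in normal growth. All serum libraries lay under their normal-growth libraries, and the log2 fold change was -0.39 ± 0.11 in G13R cells (adjusted p = 0.0503) and -0.72 ± 0.11 in GFP cells (adjusted p = 0.0015). The G13R value missed the threshold narrowly and passed it in 7 of 17 alternative settings, over all of which its adjusted p ranged from 0.0306 to 0.282.

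SNHG3 hosts H/ACA snoRNAs whose yeast relative is needed for early cuts in ribosomal RNA processing. It was at 62.1 and 55.5 FPKM in G13R cells after serum, against 69.9 and 57.6 FPKM in G13R cells in normal growth, overlapping ranges with a log2 fold change of -0.11 ± 0.14 (adjusted p = 0.653). In GFP cells it was at 51.4 and 39.8 FPKM after serum, against 68.3 and 58.2 FPKM in normal growth, with no overlap and a log2 fold change of -0.47 ± 0.14 (adjusted p = 0.032). That call is the least secure of the 5 and was lost in 6 of 17 alternative settings. With the replicate number as a block it held, at an adjusted p of 0.0043 (limma). Without GFP serum replicate 2 the log2 fold change was -0.29 (adjusted p = 0.188), without GFP normal-growth replicate 1 it was -0.36 (adjusted p = 0.197), and over all alternatives the adjusted p ranged from 0.0043 to 0.197.

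The 2 most abundant hosts and SNHG5 did not pass the test in either kind of cell. GAS5 was at 245 and 239 FPKM in G13R cells after serum, against 231 and 243 FPKM in G13R cells in normal growth, which overlapped. In GFP cells GAS5 was at 220 and 207 FPKM after serum, against 269 and 226 FPKM in normal growth, with the serum libraries just under the others. Its log2 fold change was 0.03 ± 0.09 in G13R cells (adjusted p = 0.846) and -0.21 ± 0.09 in GFP cells (adjusted p = 0.108), and the sign of the G13R value turned under median-ratio scaling. The 95% interval of the GFP value ran from -0.41 to -0.01, so a fall in GAS5 as large as that of SNHG1, SNHG15, SNHG12 or SNHG7 lay outside it. The GFP value of GAS5 was -0.33 (adjusted p = 0.0412) without GFP normal-growth replicate 2, -0.083 (adjusted p = 0.592) without GFP normal-growth replicate 1 and -0.033 (adjusted p = 0.819) under quantile normalization, the highest adjusted p among its alternatives. SNHG6 was at 275 and 267 FPKM in G13R cells after serum, against 236 and 241 FPKM in G13R cells in normal growth, with the serum libraries above the others. In GFP cells SNHG6 was at 260 and 216 FPKM after serum, against 256 and 223 FPKM in normal growth, full overlap. The log2 fold changes of SNHG6 were 0.19 ± 0.10 (adjusted p = 0.242) in G13R cells and -0.01 ± 0.10 (adjusted p = 0.936) in GFP cells, where the sign turned under quantile normalization. SNHG5 was at 62.5 and 72.0 FPKM in G13R cells after serum, against 66.7 and 69.3 FPKM in G13R cells in normal growth. In GFP cells SNHG5 was at 74.7 and 48.3 FPKM after serum, against 69.1 and 69.0 FPKM in normal growth, so 1 serum library lay above and 1 below. Its log2 fold change in G13R cells was -0.02 ± 0.17 (adjusted p = 0.955), with a sign that turned under quantile normalization. In GFP cells its log2 fold change was -0.20 ± 0.17 (adjusted p = 0.396), which was -0.51 (adjusted p = 0.0061) without GFP serum replicate 1 and 0.11 (adjusted p = 0.495) without GFP serum replicate 2, the lowest and highest estimates among its alternatives, whose adjusted p ran from 0.0061 to 0.851.

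**Figure D2:**
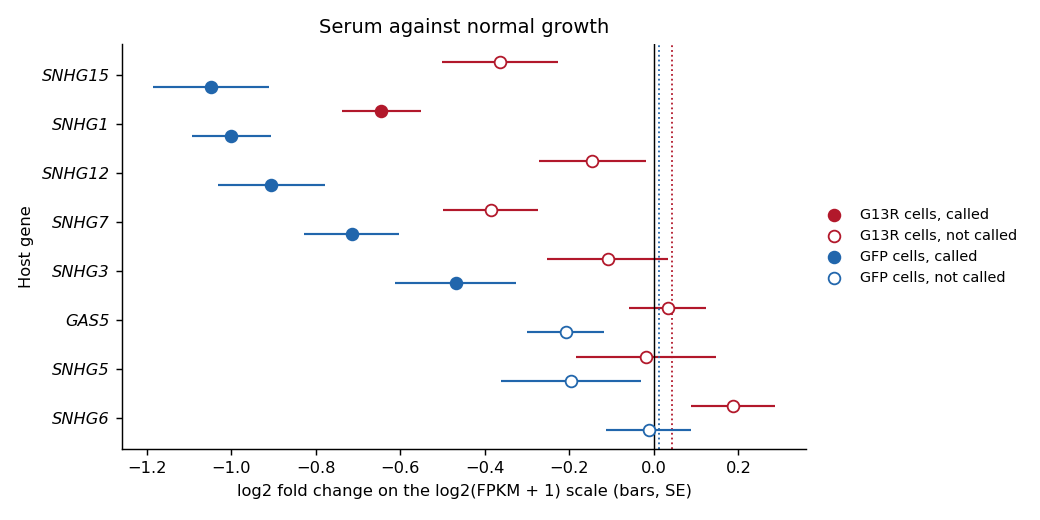
Log2 fold change of each host gene (y axis), serum against normal growth (x axis, on the log2(FPKM + 1) scale), in G13R and in GFP cells. Bars are standard errors, filled points passed an adjusted p under 0.05, and dotted lines are the medians over all genes. In G13R cells SNHG1 at -0.65 is filled, and in GFP cells 5 points from -1.05 to -0.47 are.

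The question of whether the actin mutant changes the serum response is addressed by the difference between the responses, G13R minus GFP. For 0 of 8 hosts did this difference pass limma's test, and 3 of 8 had an unadjusted p under 0.05. Over all genes 0% were called, 0 of 12996, and 1533 had an unadjusted p under 0.05. The difference was above 0 for all 8 hosts, also under both scalings but not for SNHG5 (-0.13) without GFP serum replicate 2, with a median of 0.34 beside 0.04 over all genes. It was 0.76 ± 0.18 for SNHG12 (adjusted p = 0.261), 0.68 ± 0.19 for SNHG15 (adjusted p = 0.277) and 0.35 ± 0.13 for SNHG1 (adjusted p = 0.341). The other 5 lay between 0.18 for SNHG5 and 0.36 for SNHG3. Without GFP serum replicate 1, 3 hosts were called, with a difference of 0.89 for SNHG12 (adjusted p = 0.026), 0.88 for SNHG15 (adjusted p = 0.0194) and 0.48 for SNHG1 (adjusted p = 0.0483), and the number of genes called became 486. With any other single library left out 0 hosts were called, and over all alternatives the adjusted p ran from 0.026 to 0.649 for SNHG12, from 0.0194 to 0.653 for SNHG15 and from 0.0483 to 0.687 for SNHG1. The response in G13R cells thus passed the test for fewer hosts than that in GFP cells, but a difference between the responses was not shown by the fit over all 8 libraries.

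In normal growth no host passed limma's test of G13R against GFP cells, in which 0.0462% of all genes were called. Of the 8 hosts 0 were called and 2, SNHG12 and SNHG1, were lower at an unadjusted p under 0.05, beside 11.8% of all genes. SNHG12 was at 36.2 and 43.2 FPKM in G13R cells, against 56.6 and 58.0 FPKM in GFP cells, a log2 fold change of -0.52 ± 0.13 (adjusted p = 0.159). SNHG1 was at 170 and 183 FPKM in G13R cells, against 208 and 218 FPKM in GFP cells, a log2 fold change of -0.27 ± 0.09 (adjusted p = 0.229). Both G13R libraries lay under both GFP libraries for 3 hosts, these 2 and SNHG15, beside 34.3% of all genes. The median over the hosts, -0.06, lay near that over all genes, -0.07.

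After serum the G13R cells had the higher group mean for every host, under both scalings too, but 0 of 8 passed limma's test, in which 0.823% of all genes were called. At an unadjusted p under 0.05, 3 of 8 were higher and 0 lower, beside 8.63% of all genes higher and 12.2% lower. SNHG15, at 33.3 and 28.4 FPKM in G13R cells, against 24.9 and 18.6 FPKM in GFP cells, had the largest log2 fold change, 0.50 ± 0.14 (adjusted p = 0.0975). SNHG3 followed at 0.37 ± 0.14 (adjusted p = 0.185) and SNHG7 at 0.26 ± 0.11 (adjusted p = 0.223). SNHG1 had the smallest, 0.08 ± 0.09 (adjusted p = 0.652), and its libraries overlapped. Both G13R libraries lay above both GFP libraries for 6 of 8 hosts, all but SNHG1 and SNHG5, beside 22.6% of all genes. The median over the hosts was 0.22, beside -0.03 over all genes. Without GFP serum replicate 1, 4 hosts were called, SNHG15 at 0.69, SNHG3 at 0.55, SNHG5 at 0.46 and SNHG6 at 0.33, with adjusted p from 0.0081 to 0.0481, and 1628 genes were called. Over all alternatives the adjusted p of these 4 reached 0.462 for SNHG15, 0.666 for SNHG3, 0.922 for SNHG5 and 0.845 for SNHG6. Without GFP serum replicate 2, 0 hosts were called, SNHG1 was at -0.04 and SNHG5 at -0.15, so the size of these values rests on which GFP serum library is kept. The comparisons share libraries with the serum comparisons above and are not independent of them.

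**Figure D3:**
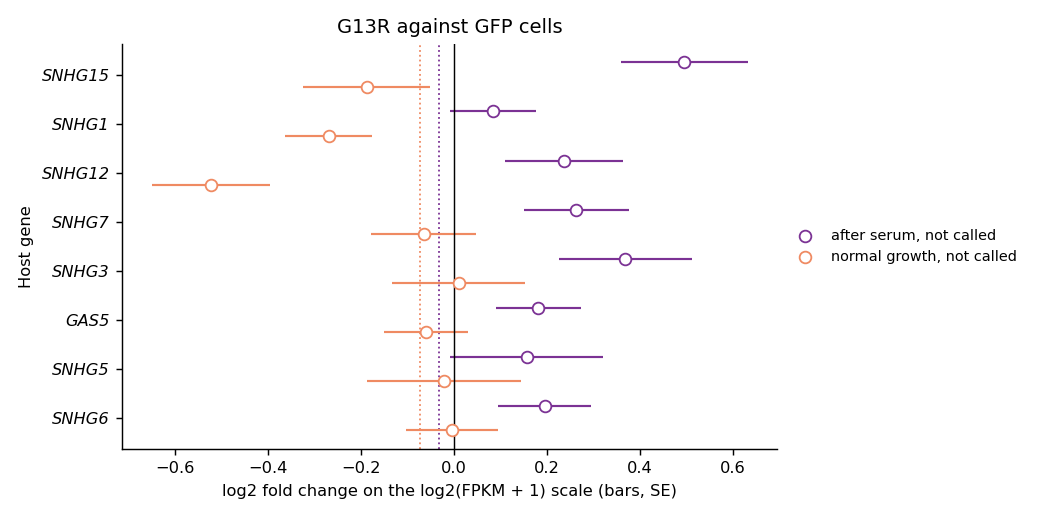
Log2 fold change of each host gene (y axis), G13R against GFP cells (x axis, on the log2(FPKM + 1) scale), after serum and in normal growth. Bars are standard errors, open points did not pass an adjusted p under 0.05, and dotted lines are the medians over all genes. All 8 points after serum lie between 0.08 and 0.50, and none is filled.

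The other genes of the pathway were taken from lists of hosts and of proteins that build, read or decay these RNAs. Among 7 measured members of a list of 14 further noncoding hosts, 0 were called by limma after serum in G13R cells. There 1 was lower at an unadjusted p under 0.05, beside 11.8% of all genes. In GFP cells 2 were called lower, beside 15.7% of all genes. DANCR, a noncoding host named for its effect on differentiation, had a log2 fold change of -0.16 ± 0.12 in G13R cells (adjusted p = 0.376) and -0.65 ± 0.12 in GFP cells (adjusted p = 0.0027). SNHG16 had -0.05 ± 0.10 in G13R cells (adjusted p = 0.77) and -0.40 ± 0.10 in GFP cells (adjusted p = 0.0118). The GFP value of SNHG16 was -0.27 (adjusted p = 0.0596) without GFP serum replicate 2, and over all alternatives its adjusted p ran from 0.0019 to 0.0834. The median of the list was -0.05 in G13R cells and -0.27 in GFP cells.

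Protein-coding hosts are described in 2 sets, ribosomal proteins and others, split by gene symbol with values known. Of 22 ribosomal protein genes that host snoRNAs, 0 were called lower in either kind of cell, also at an unadjusted p under 0.05, and 1, RPL3, was called higher in GFP cells (0.27 ± 0.08, adjusted p = 0.0267). Their median log2 fold change was 0.06 in G13R cells and 0.04 in GFP cells, close to all genes. At an unadjusted p under 0.05, 11.8% of all genes were lower in G13R cells and 21.4% in GFP cells. Under quantile normalization 3 of the 22 were called higher in G13R cells, and in GFP cells 4 were called higher and 1 lower. Among all genes 4.62% were called lower in G13R cells and 15.7% in GFP cells, where 14.9% were called higher. Of the 20 other protein-coding hosts, 6 were called lower in G13R cells and 15 in GFP cells, with 1, TPT1, called higher in GFP cells. Their medians were -0.26 in G13R cells and -0.48 in GFP cells. Those lower include NCL, the nucleolar protein nucleolin, at -0.51 ± 0.08 in G13R cells (adjusted p = 0.0036) and -0.84 ± 0.08 in GFP cells (adjusted p = 1.03e-04). WDR43, a factor of small-subunit assembly, was at -0.60 ± 0.14 in G13R cells (adjusted p = 0.0242) and -1.07 ± 0.14 in GFP cells (adjusted p = 6.48e-04). The G13R call of WDR43 was lost in 6 of 17 alternative settings, among them without any 1 of the 4 G13R libraries, with an adjusted p of up to 0.164. PPAN, a factor of large-subunit assembly, was at -1.11 ± 0.16 in GFP cells (adjusted p = 9.16e-04). With 1 library left out, 1 to 11 of the other protein-coding hosts were called lower in G13R cells and 11 to 15 in GFP cells. The higher call of TPT1 was lost without GFP normal-growth replicate 1. That of RPL3 was lost without GFP serum replicate 2, without either GFP normal-growth library and without either G13R serum library.

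By the sequence rule above, a TOP tract was found at the RefSeq start of 12 of 15 ribosomal protein hosts with an entry (80%) and 9 of 17 other protein-coding hosts (52.9%). Among the noncoding hosts the 3 with a tract at the RefSeq start had log2 fold changes in GFP cells of -0.20 (SNHG5), -0.72 (SNHG7) and -0.90 (SNHG12). The 3 without a tract at that start had -0.21 (GAS5), -0.47 (SNHG3) and -1.0 (SNHG1). In GENCODE a tract opened 6 of 23 SNHG5, 0 of 4 SNHG7 and 8 of 17 SNHG12 transcripts. It also opened 7 of 29 GAS5 transcripts, with the commonest start among theirs, 1 of 3 of SNHG3 and 2 of 25 of SNHG1. With the tract read from the first base on at the RefSeq starts, it was found in 11 of the 15 (73.3%) and 8 of the 17 (47.1%). SNHG7 then moves to the hosts without one. By either reading a tract was found in SNHG12, called lower after serum in GFP cells, and in SNHG5, which did not pass the test. The SNHG5 value in GFP cells was -0.51 or 0.11, depending on which library of the serum pair was left out. Any relation between a tract and the response to serum was not tested.

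Proteins of the snoRNA particles and their assembly factors were mostly called lower in GFP cells. Of 18 tested, 7 were called lower in G13R cells, beside 4.62% of all genes, and 16 in GFP cells, beside 15.7%. None, 0 of 18, was called higher by limma or at an unadjusted p under 0.05. The medians were -0.33 in G13R cells and -0.66 in GFP cells. RRP9, a protein of the U3 particle, was at -0.71 ± 0.17 in G13R cells (adjusted p = 0.0217) and -1.47 ± 0.17 in GFP cells (adjusted p = 2.92e-04). NHP2L1, on the same list, was at -0.52 ± 0.08 in G13R cells (adjusted p = 0.0046, limma), a call lost in 1 of 17 alternatives. NOLC1, a nucleolar chaperone of the particles, was at -0.66 ± 0.15 in G13R cells (adjusted p = 0.0189) and -1.18 ± 0.15 in GFP cells (adjusted p = 4.82e-04). DKC1, the pseudouridine synthase of H/ACA particles and itself a snoRNA host, was at -0.50 ± 0.14 in G13R cells (adjusted p = 0.0394) and -1.0 ± 0.14 in GFP cells (adjusted p = 7.01e-04). Without any 1 of the 4 G13R libraries RRP9, NOLC1 and DKC1 all lost their G13R calls. Over 17 alternatives the call was lost in 6 for RRP9, 6 for NOLC1 and 9 for DKC1. Leaving out 1 library gave 0 to 9 of the 18 lower in G13R cells, the 0 without G13R serum replicate 2, and 12 to 16 in GFP cells.

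Of 14 nonsense-mediated decay factors, 0 were called by limma in G13R cells, where 6 were lower at an unadjusted p under 0.05. In GFP cells 8 were called lower. Their median was -0.20 in G13R cells and -0.37 in GFP cells. Of all genes 11.8% were lower in G13R cells at that unadjusted threshold, and 15.7% were called lower in GFP cells. EIF4A3, a core protein of the exon junction complex, was at -0.61 ± 0.07 in GFP cells (adjusted p = 4.34e-04), and MAGOH, its partner in that complex, at -0.60 ± 0.12 (adjusted p = 0.0053). UPF1, the helicase at the centre of the pathway, was at -0.54 ± 0.12 (adjusted p = 0.0074), and lost its call without GFP normal-growth replicate 2 (-0.46). The number of decay factors called lower in GFP cells was 3 without that library, 5 without GFP serum replicate 2 and 6 or 7 without any other. Of 15 mTORC1 components and TOP regulators, 2 were called lower in G13R cells and 5 in GFP cells, with 2 called higher in GFP cells. Over all genes 4.62% were called lower in G13R cells, and 15.7% lower and 14.9% higher in GFP cells. EIF4E, the cap-binding factor, was at -0.61 ± 0.14 in G13R cells (adjusted p = 0.0204) and -0.76 ± 0.14 in GFP cells (adjusted p = 0.003), and LARP1 at -0.59 ± 0.12 in GFP cells (adjusted p = 0.0052). The G13R call of EIF4E was lost in 5 of 17 alternatives, among them without G13R normal-growth replicate 1 or 2 or G13R serum replicate 2, with an adjusted p of up to 0.149. With 1 library left out, 0 to 2 genes of the mTORC1 list were lower in G13R cells, and 3 to 6 were lower and 1 to 2 higher in GFP cells. RPTOR, also on the mTORC1 list, was at -0.52 ± 0.12 in G13R cells (adjusted p = 0.0181, limma), a call lost in 3 of 17 alternatives. The inhibitor EIF4EBP2 was higher in GFP cells at 0.83 ± 0.17 (adjusted p = 0.0049). Of 102 genes on these and the glucocorticoid list, 0 were called by limma between G13R and GFP cells in normal growth, after serum, or in the difference of responses. At an unadjusted p under 0.05 there were 40 lower and 0 higher in normal growth, 21 lower and 16 higher after serum, and 2 lower and 21 higher in the difference. Of all genes 11.8% were lower and 3.34% higher at that threshold in normal growth, 12.2% lower and 8.63% higher after serum, and 4.11% lower and 7.69% higher in the difference.

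Targets of the glucocorticoid receptor were listed because GAS5 RNA binds that receptor. Of 9 genes tested, the receptor NR3C1 among them, 2 were called higher in G13R cells, and 4 higher and 1 lower in GFP cells. Over all genes 8.26% were called higher in G13R cells, and 14.9% higher and 15.7% lower in GFP cells. DUSP1, a phosphatase that is also an immediate-early serum gene, was at 1.27 ± 0.29 in G13R cells (adjusted p = 0.0192) and 3.07 ± 0.29 in GFP cells (adjusted p = 1.03e-04). The G13R call of DUSP1 was lost in 6 of 17 alternatives, among them without any 1 of the 4 G13R libraries, with an adjusted p of up to 0.12. ERRFI1 was at 0.74 ± 0.09 in G13R cells (adjusted p = 0.0013, limma) and kept its call in all 17 alternatives. In GFP cells PER1 was at 0.97 ± 0.18 (adjusted p = 0.0031, limma) and SGK1 at 0.97 ± 0.27 (adjusted p = 0.0232). The SGK1 call was lost in 6 of the 17. FKBP5, another target, was the 1 called lower in GFP cells, at -0.77 ± 0.13 (adjusted p = 0.0022). NR3C1 itself did not pass in either kind of cell.

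**Figure D4:**
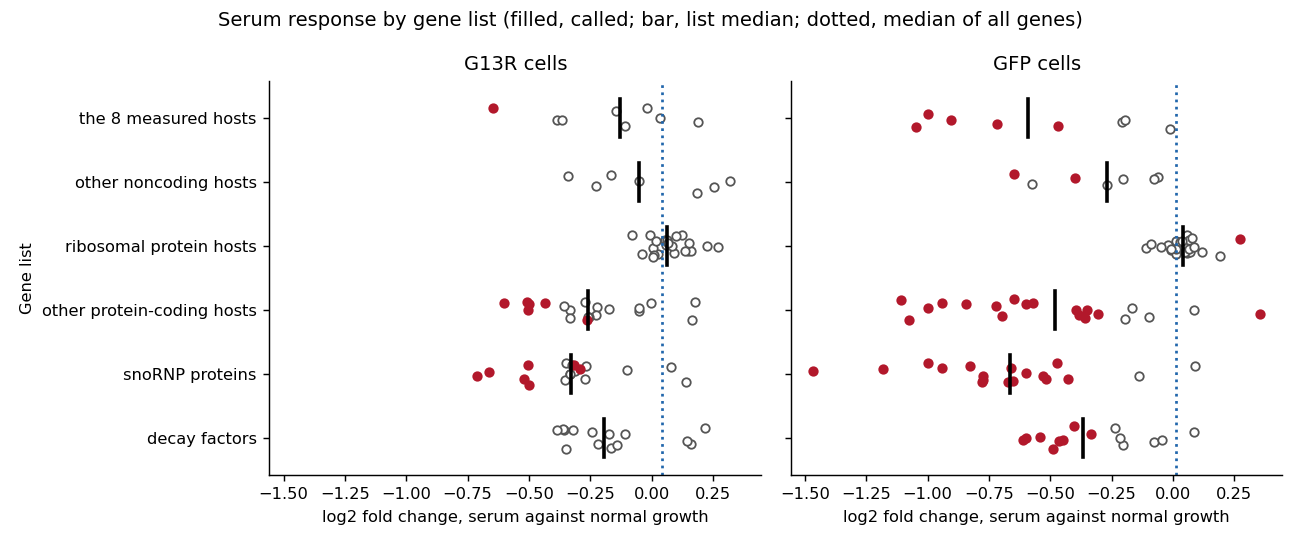
Log2 fold change after serum against normal growth (x axis) for the members of 6 gene lists (y axis) in G13R cells (left) and GFP cells (right). Each point is a gene, filled where it passed an adjusted p under 0.05, short bars are list medians and the dotted line is the median over all genes. Ribosomal protein hosts sit near 0 with 1 gene called (in GFP cells, and 5 there under quantile normalization), while 16 of 18 snoRNA particle proteins are called lower in GFP cells.

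Some hosts share their locus with another gene, and the counting of overlapping reads is not described in the sources used here. RCC1, a protein-coding gene on the same strand, spans all 4913 bases of SNHG3, and itself was lower after serum in GFP cells, at -0.57 ± 0.10 (adjusted p = 0.0023), and at -0.27 ± 0.10 in G13R cells (adjusted p = 0.0962). Reads of SNHG3 and RCC1 cannot be fully told apart in these values. SLC3A2, an amino acid transporter subunit that starts beside SNHG1 on the opposite strand, was lower after serum in GFP cells, at -0.84 ± 0.12 (adjusted p = 8.45e-04), and at -0.39 ± 0.12 in G13R cells (adjusted p = 0.0567). ZBTB37 overlaps GAS5 by 801 bases, FAM69B overlaps SNHG7 by 2685 bases and TRNAU1AP overlaps SNHG12 by 2 bases, each on the opposite strand, and none of these 3 was called in any comparison. Whether strand was used in counting is not stated, so reads from opposite strands may be shared there. MCMDC2, which overlaps SNHG6 by 365 bases, was too low to be tested. The FAM69B estimate was 0.47 ± 0.17 after serum in GFP cells (adjusted p = 0.0551), of opposite sign to SNHG7.

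The snoRNAs themselves could not be followed. The table lists 22 snoRNA rows inside 5 of the hosts, with spans of 63 to 135 bases, and 20 of them are under 1e-20 FPKM in every library, a limit below which values are taken as 0 here. Of the other two, SNORD50A inside SNHG5 is listed at 820 FPKM in G13R normal-growth replicate 1 and at 0 in the other 7 libraries. SNORD87 inside SNHG6 is listed at 234 FPKM in GFP serum replicate 1 and at 140 FPKM in GFP normal-growth replicate 1, and at 0 elsewhere. RNAs this short and without a poly(A) tail are poorly captured by the library method. SNORD87 passed the filter and is among the genes tested, but no comparison of these rows between groups is given here.

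The hosts did not all share a profile over the 8 libraries. Likeness was measured as the root mean square difference of log2(FPKM + 1), each gene centred on its own mean, and smaller values mean nearer profiles. Among the 28 pairs of hosts the nearest were GAS5 and SNHG6 at 0.10, and the farthest SNHG1 and SNHG6 at 0.47. Nearest genes were sought among the tested genes, but those with clone-type, LOC, LINC or orf symbols were left out. Genes with a date in place of a symbol and the 8 hosts were left out too. The gene nearest to SNHG1 among those searched was EBNA1BP2, a nucleolar protein of large-subunit assembly, at 0.0142. EBNA1BP2 was at 161 and 157 FPKM in G13R cells after serum, against 243 and 261 FPKM in G13R cells in normal growth. In GFP cells EBNA1BP2 was at 165 and 140 FPKM after serum, against 298 and 303 FPKM in normal growth. Next to SNHG1 came the mitochondrial matrix protein C1QBP at 0.0495 and NOP56, a core protein of C/D particles and itself a snoRNA host, at 0.058. SNHG15 was nearest to RPIA, an enzyme of the pentose phosphate pathway, at 0.0496, then to TMEM177 at 0.0504 and to SRM, the spermidine synthase, at 0.053. SNHG12 was nearest to ATAD3A at 0.068, MAOA at 0.0739 and PDCD1LG2 at 0.0856. GAS5, which varied little, was nearest to the elongation factor TCEA1 at 0.0396, SAMD4A at 0.0444 and the nuclear export receptor XPO7 at 0.0465. These distances describe 8 libraries that share 4 groups and carry no test.

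**Figure D5:**
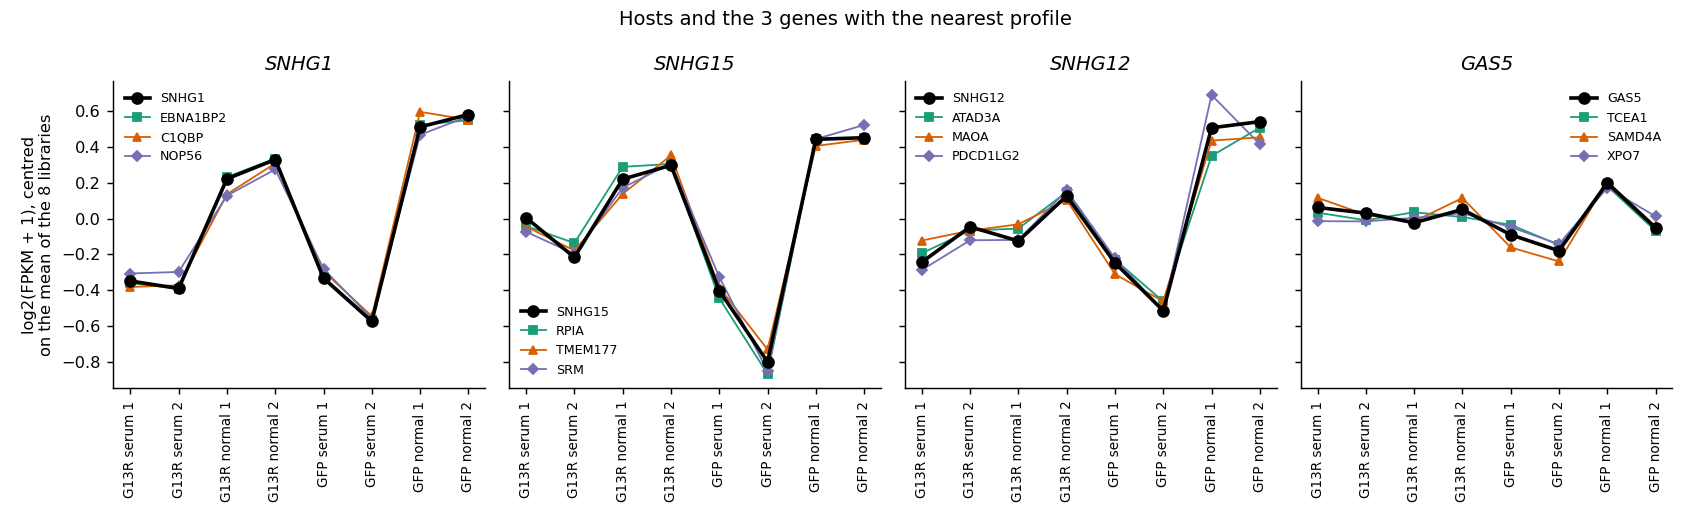
Log2(FPKM + 1), centred on each gene's mean (y axis), in the 8 libraries (x axis). SNHG1, SNHG15, SNHG12 and GAS5 are in black, and the 3 genes with the nearest profile among those searched are in colour. Lines join libraries for reading only. EBNA1BP2 lies on SNHG1 at a root mean square difference of 0.0142, and GAS5 and its neighbours stay near 0.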

How the data were processed

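RNA of 8 libraries was measured by poly(A) RNA sequencing. The authors deposited 1 table of FPKM values per gene and library, made with TopHat2 2.0.13 and Cufflinks 2.2.1 per the submitters' processing notes, which also name the builds hg19 and BDGP5. The sources used here name no gene annotation. Column names were read as kind of cell, condition and replicate, where S stands for serum and C is taken as the remaining condition. Starts count from 0, so 1 was added. FPKM values hold no read counts, whole reads could not be recovered (at most 16.8% of low gene pairs lay at 1 common ratio), and depth is unknown.

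The log2(FPKM + 1) values of genes reaching 1 FPKM in 2 or more libraries were fitted by limma 3.58.1 (R 4.3.3), with an intensity trend, 1 mean per group and all 8 libraries. The 4 residual degrees of freedom came from 2 libraries per group, and log2(FPKM + 1) understates changes of low values. A gene was called where its p, adjusted by Benjamini-Hochberg over all genes, was under 0.05. All p-values are two-sided. The fit was tested on simulated data with independent noise and no library set apart, so the simulation does not cover the case of GFP serum replicate 2. Strand came from GENCODE release 29 by symbol. Members, lists and tests were chosen with earlier results of these data known. Named genes were all hosts, the 3 largest changes among the called genes of each list, and neighbours. The 3 nearest profiles of 4 hosts, among the genes searched, were also named. FKBP5, NR3C1, RPL3 and TPT1 lie outside that rule and were chosen after their values were seen. The alternatives were leaving out each library, quantile normalization, median-ratio scaling, a block for the replicate number, fits of the compared libraries alone, no trend, a pseudocount of 0.1, no filter or one at 5 FPKM, leaving out rows under 200 bases, and a 2-fold minimum. List counts with a library left out, the scalings of protein-coding hosts and the tract read from the first base on were added after the data were seen.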

Additional observations from a re-analysis of the deposited data

How the results depend on the processing

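Limits: 2 libraries per group, an unknown depth, and GFP serum replicate 2, which stands apart, bound these results. SNHG1 kept its call in both serum comparisons, and SNHG7, SNHG12 and SNHG15 in GFP cells, under every alternative run except a 2-fold minimum, which left 0 hosts in G13R cells and 1, SNHG15, in GFP cells. The number of hosts called lower in G13R cells (1) was 2 with a filter at 5 FPKM, 2 with median-ratio scaling, 3 with only the libraries compared and 2 without rows under 200 bases. Leaving out 1 library gave 1 to 3 hosts in G13R cells, 4 to 6 in GFP cells, 0 to 4 for G13R against GFP cells after serum and 0 to 3 for the difference of responses. The causes were not tested.

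The number of genes called in G13R cells after serum against normal growth (1675) was 984 without a filter, 1071 without the trend and 295 at 2-fold, and 412 to 2353 with a library left out. In GFP cells (3985) it was 688 at 2-fold and 2146 to 4288 with a library left out. For G13R against GFP cells in normal growth (6) it was 14 with a filter at 5 FPKM, 12 with quantile normalization, 14 with only the libraries compared, 11 without rows under 200 bases and 4 to 87 with a library left out. After serum (107) it was 4 without a filter, 263 at 5 FPKM, 164 with quantile normalization, 6 with only the libraries compared, 6 without the trend, 47 at 2-fold and 5 to 1628 with a library left out. For the difference (0) it was 1 with a pseudocount of 0.1, 2 with quantile normalization and 0 to 486 with a library left out.

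Same-numbered libraries deviated together only weakly, with correlations of 0.017 to 0.121 over genes, so the numbers were not read as pairs. With the replicate number as a block the hosts called stayed at 1 in G13R cells, 5 in GFP cells and 0 elsewhere, while the genes called became 83 in normal growth and 403 after serum for G13R against GFP cells.

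Direction turned for hosts that were not called. Under median-ratio scaling GAS5 was -0.018 for serum in G13R cells, and for G13R in normal growth GAS5 was 0.0046, SNHG5 0.042 and SNHG6 0.060. Under quantile normalization SNHG5 was 0.033 for serum in G13R cells and SNHG6 0.17 for serum in GFP cells, and for G13R in normal growth GAS5 was 0.082, SNHG5 0.105, SNHG6 0.143 and SNHG7 0.056. With a library left out, GAS5 ran from -0.0049 to 0.070, SNHG3 from -0.247 to 0.028 and SNHG5 from -0.12 to 0.082 for serum in G13R cells, and SNHG5 from -0.51 to 0.11 and SNHG6 from -0.14 to 0.12 for serum in GFP cells. For G13R in normal growth GAS5 ran from -0.19 to 0.066, SNHG3 from -0.13 to 0.15, SNHG5 from -0.049 to 0.0052, SNHG6 from -0.11 to 0.10 and SNHG7 from -0.21 to 0.082. For G13R after serum SNHG1 ran from -0.036 to 0.20 and SNHG5 from -0.15 to 0.46, and for the difference SNHG5 ran from -0.13 to 0.49. A group left with 1 library was assumed to vary like the others. A count model was not run, because no reads could be recovered.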

Other observations

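Ribosomal protein genes that host snoRNAs were mostly at lower values in G13R cells than in GFP cells, by an amount that depended on the scaling. In normal growth 17 of 22 were lower in G13R cells than in GFP cells at an unadjusted p under 0.05, with 0 higher and 0 called by limma after adjustment, beside 11.8% of all genes lower and 3.34% higher. Their median log2 fold change was -0.24, beside -0.07 over all genes, of which 64.0% lay below 0. After serum 12 of 22 were lower in G13R cells at an unadjusted p under 0.05, with 0 higher and 0 called, beside 12.2% of all genes lower and 8.63% higher. The median was -0.21, beside -0.03 over all genes. Of the 20 other protein-coding hosts, 11 were lower in normal growth at an unadjusted p under 0.05, with a median of -0.24, while after serum 3 were lower and 4 higher, with a median of -0.01. Under median-ratio scaling 14 of the 22 ribosomal protein hosts were lower in normal growth and 12 after serum at an unadjusted p under 0.05, with medians of -0.17 and -0.17. Under quantile normalization the counts were 6 and 7, with 1 higher after serum, and the medians were -0.040 and -0.034. The median of the other protein-coding hosts after serum turned to 0.026 under median-ratio scaling and 0.044 under quantile normalization, and in normal growth it was -0.17 and -0.061. These counts were noticed after the values were seen and carry no test of the set, and the genes of a set are not independent of each other.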
